A study of Mus musculus with 45 samples.

Results

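Kit, Ano1, Etv1, Pdgfra, P2ry1 and Kcnn3 are 6 genes that mark the interstitial cells of the gut wall, and they were followed through RNA sequencing of the mouse distal colon. They were taken by name from a list of marker genes, out of 50600 gene identifiers in the count tables. The rule uses no measured value, but the list was drawn up with earlier results of these data known. The series tested a selective antagonist of GPR4, a proton-sensing receptor, and an antibody to p40, in mice that lack the gene for interleukin 10 and are used as a model of colitis. The first cohort held 8 libraries of untreated wild-type mice, 10 of Il10 knockout mice given vehicle, 9 of knockout mice given compound 13, the antagonist, at 30 mg/kg, and 7 of knockout mice given it at 10 mg/kg. A second cohort, marked D77 and read here as day 77, held 5 libraries of knockout mice given vehicle and 5 of knockout mice given anti-p40, an antibody to the subunit that IL-12 and IL-23 share. Every group except the wild type therefore carries the same knockout, and no wild-type library belongs to the day 77 cohort. Strain, sex, age, dosing schedule and whether 1 animal gave each library are not stated in the labels, so p-values measure the spread between these libraries, which may in part be technical.

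Interstitial cells of Cajal are the electrical pacemakers of gut muscle. They depend on the receptor tyrosine kinase Kit, fire through the calcium-activated chloride channel Ano1, and need the transcription factor Etv1 to form and keep their networks. A second interstitial cell, marked by the growth factor receptor Pdgfra, passes on inhibitory nerve signals: purines released by enteric nerves bind its receptor P2ry1, and calcium then opens the small-conductance potassium channel Kcnn3. Both cells are coupled by gap junctions to smooth muscle. None of the 6 genes is private to them: Kit is also carried by mast cells, Pdgfra by fibroblasts and by cells under the epithelium, and Ano1 by epithelium. In bulk tissue, fewer cells of a type and less RNA per cell cannot be told apart.

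In the mouse build GRCm38, Kit lies at chr5:75574916-75656722 and Pdgfra at chr5:75152292-75198215, both on the plus strand, 376701 bases apart with 5 annotated genes and 0 protein-coding genes between them. P2ry1 lies at chr3:61002795-61008982 and Kcnn3 at chr3:89520164-89675132, both on the plus strand. Etv1 lies at chr12:38779380-38870484 on the plus strand, and Ano1 at chr7:144588549-144751974 on the minus strand. All 6 are protein-coding genes. Genes annotated on the opposite strand overlap Ano1, Pdgfra and P2ry1. Whether the counting used strand is not given in the sources used here, so reads of these partners may not be told apart. The most abundant of the partners, Gm37035, held a mean of 13.2 estimated counts a library against 668 for P2ry1.

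The 250 bases before the RefSeq start sites (GRCm38.p6) are shown for the pair whose levels moved together across libraries, Etv1 and Kcnn3, and for Kit and Ano1, whose levels did so less or not at all. Capitals mark the GC box, the letters GGGCGG on either strand. The RefSeq starts of Ano1, Etv1 and Kit differ from the ends of the gene spans given above. The Etv1 window is chr12:38779832-38780081, the Kcnn3 window chr3:89519914-89520163, the Kit window chr5:75574737-75574986, all on the plus strand, and the Ano1 window chr7:144738574-144738823 on the minus strand.
Etv1: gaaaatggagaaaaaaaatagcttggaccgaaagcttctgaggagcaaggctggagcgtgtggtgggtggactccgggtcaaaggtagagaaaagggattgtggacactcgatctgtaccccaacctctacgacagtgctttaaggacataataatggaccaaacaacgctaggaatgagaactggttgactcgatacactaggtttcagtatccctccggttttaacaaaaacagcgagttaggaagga
Kcnn3: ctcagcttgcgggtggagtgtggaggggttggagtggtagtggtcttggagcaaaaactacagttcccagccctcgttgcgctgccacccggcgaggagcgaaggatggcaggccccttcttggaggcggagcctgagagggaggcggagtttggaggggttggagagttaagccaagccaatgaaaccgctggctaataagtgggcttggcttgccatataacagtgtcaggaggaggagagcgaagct
Kit: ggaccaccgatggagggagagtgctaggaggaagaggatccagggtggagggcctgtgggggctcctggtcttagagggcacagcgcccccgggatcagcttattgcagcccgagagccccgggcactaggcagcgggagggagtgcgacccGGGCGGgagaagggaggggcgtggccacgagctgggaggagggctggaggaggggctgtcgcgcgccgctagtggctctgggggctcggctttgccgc
Ano1: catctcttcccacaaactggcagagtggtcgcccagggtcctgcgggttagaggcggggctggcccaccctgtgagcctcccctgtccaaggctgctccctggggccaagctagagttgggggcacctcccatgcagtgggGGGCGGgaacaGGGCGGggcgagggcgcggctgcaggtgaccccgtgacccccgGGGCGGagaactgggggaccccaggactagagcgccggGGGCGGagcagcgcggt

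The windows differed in base composition and in the GC box. The Kit window was 70.8% G and C, the Ano1 window 72.0% and the P2ry1 window also 70.8%, against a median of 52.4% over 32851 windows of the same length. The Kcnn3, Pdgfra and Etv1 windows were at 58.8%, 54.4% and 46.4%. The GC box stood in 3 of the 6 members, Kit, Ano1 and P2ry1, in 4 of the 8 muscle list genes with a window and in 32.7% of all windows. Kit held 1 copy at positions -98 to -93 from the start, and Ano1 held 4, the nearest at -17 to -12. The CArG box, the serum response factor motif of smooth muscle genes, was searched only as CC, 6 letters of A or T, and GG. This strict form was in 0 of the 6 members, in 0 of the 8 muscle list genes that have a window and in 1.47% of all windows. Forms with a G or C among the 6 letters were not counted, and the Acta2 window holds such a run, ccctatatgg. The search therefore did not set the members apart from muscle genes, and its 0 does not mean that muscle windows lack the motif. The ETS motif CCGGAAG, searched on both strands, was in 0 of 6 members, 1 of 8 muscle genes and 6.91% of all windows. A match is a run of letters and not a tested site, and no match says only that these letters are not in this window.

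Total estimated counts ran from 22682491 to 36279774 over the 45 libraries. Il10, the deleted gene, had 10 counts summed over the 8 wild-type libraries, was above 0 in 4 of them, and had 0 counts in each of the 36 knockout libraries in a group, so that its low level in wild type makes it a weak check of the labels. Of the colon markers, Muc2, the mucin of goblet cells, ran from 1729 to 2858 TPM in wild type, where the small intestine enzymes Sis and Lct were at most 0.02 and 0.07 TPM. Smooth muscle stood apart between libraries: the summed level of 12 muscle genes ran from 3964 to 9149 TPM in wild type and from 268 to 6608 TPM in knockout vehicle. Against wild type, knockout vehicle had 6 of 7 epithelial genes higher, 4 of 7 endothelial genes lower, and 3 of 8 colon genes higher and 2 lower, beside 25.2% of all genes higher and 23.9% lower, so the colon genes lay near the share of all genes. Fabp6, an ileal bile acid carrier, was at 3.20 to 103 TPM in knockout vehicle and 3.20 to 7.95 TPM in wild type. The summed level of the small intestine list ran from 3.83 to 102 TPM in day 77 vehicle and from 3.20 to 9.21 TPM with anti-p40. One library has conflicting dose labels (30 and 10 mg/kg) and entered no comparison.

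The members differed in level widely in wild-type colon, in TPM, a scale that corrects for transcript length and library size. Ano1 was the most abundant, with a lowest value of 151, a median of 185 and a highest of 257 TPM. Kit followed with 18.0, 21.7 and 30.3 TPM, and P2ry1 with 12.3, 13.7 and 16.3 TPM. These 3 ranges did not overlap with each other. Pdgfra ran from 8.08 to 13.0 TPM with a median of 10.3, and its range overlapped that of P2ry1. Etv1 ran from 3.25 to 10.52 TPM with a median of 5.02, and Kcnn3 from 1.99 to 6.20 TPM with a median of 4.29, and these neighbours overlapped too. In the 10 knockout vehicle libraries Kcnn3 and Etv1 had the widest spread, with a standard deviation of 120% and 81.2% of the mean, against 24.9% to 31.9% for the other 4 members.

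**Figure D1:**
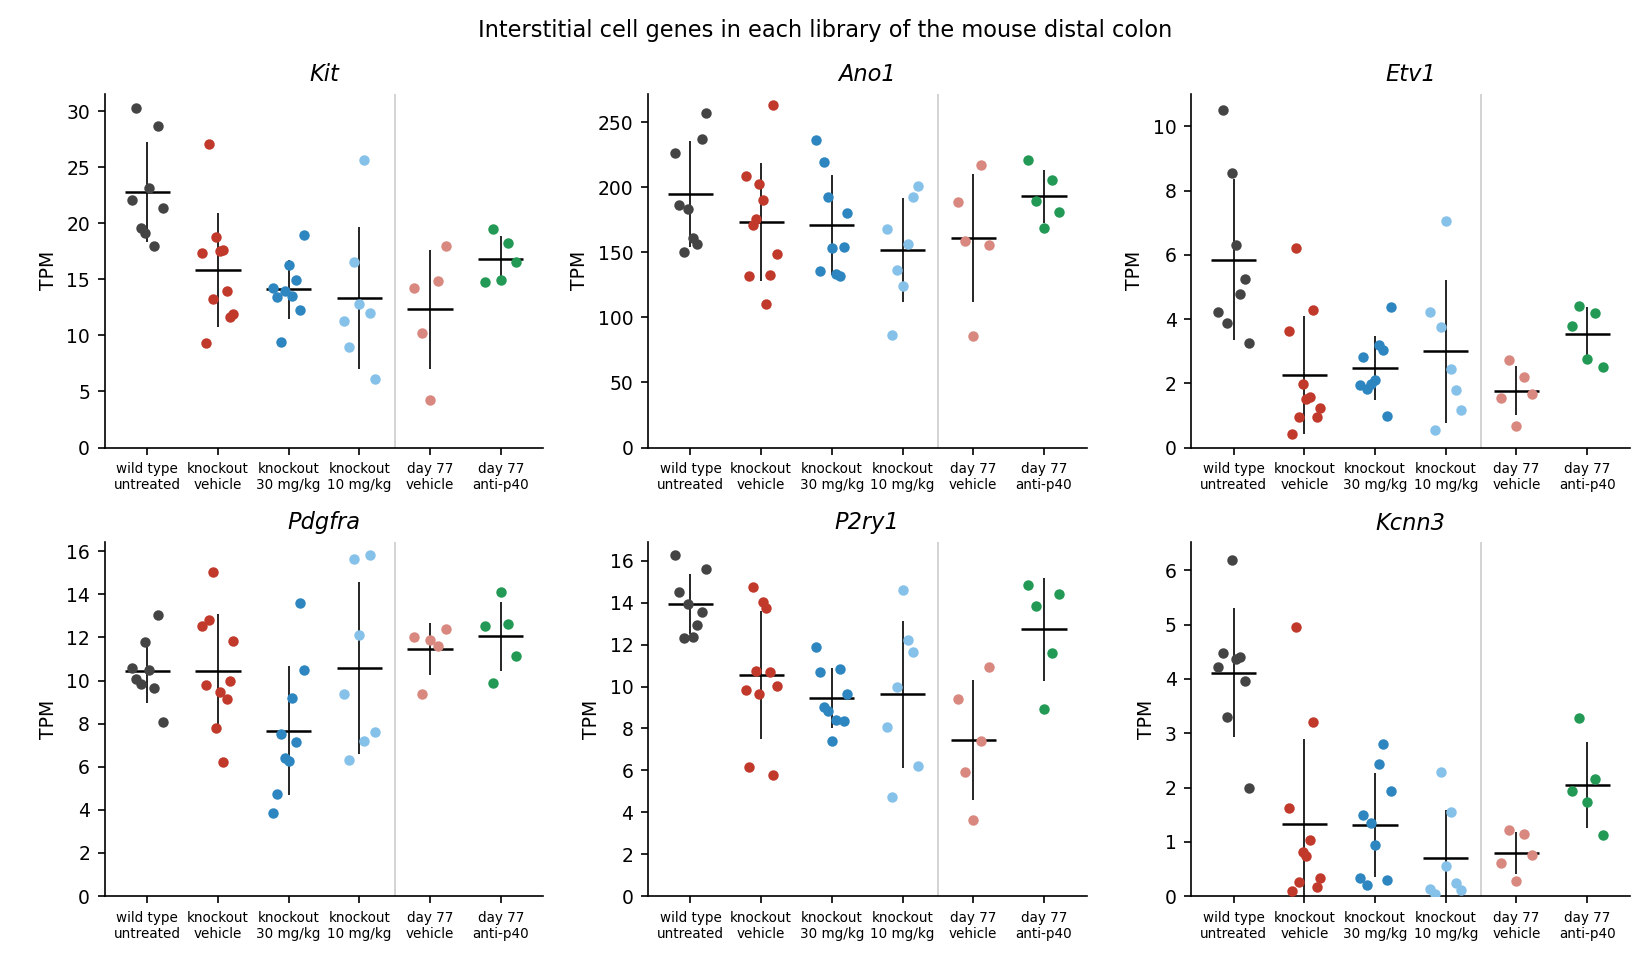
TPM of each member (y axis, from 0) in every library of the 6 groups (x axis), with the mean as a horizontal line and ± 1 SD as a vertical line. Ano1 lies between 85.4 and 263 TPM in all groups, while Kcnn3 runs down to 0.04 TPM in the 10 mg/kg group.

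Knockout vehicle against wild type sets Il10 knockout colon beside normal colon. The wild-type mice were untreated and the knockout mice were given vehicle, so genotype and vehicle dosing cannot be told apart in any comparison with wild type. Of the 6 genes, 3 fell in knockout vehicle colon (Kit, Etv1 and Kcnn3) and 0 rose, while Ano1, Pdgfra and P2ry1 did not pass the threshold (edgeR quasi-likelihood test, Benjamini-Hochberg adjusted p under 0.05). Over all 16435 genes tested, 49.2% were called in either direction, 25.2% higher and 23.9% lower. A count of 3 of 6 in either direction thus lies near the share of all genes. All 3 were lower, and whether 3 of 6 exceeds the share called lower was not tested. The sizes ran from Kcnn3, with a log2 fold change of -1.52, through Etv1, with -0.86, to Kit, with -0.31, against a median of -0.012 over all genes.

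Kit, the receptor for stem cell factor, was at 9.30, 15.7 and 27.1 TPM (lowest, median and highest of 10) in knockout vehicle, and 8 of the 10 libraries lay below the lowest wild-type library. Replicates 3 and 5 of knockout vehicle, at 27.1 and 18.7 TPM, lay inside the wild-type range. The log2 fold change was -0.31 (SE 0.13, adjusted p = 0.0481). Ano1, the pacemaker channel, was at 110, 173 and 263 TPM in knockout vehicle, with 5 of 10 libraries inside the wild-type range, and its log2 fold change was -0.15 (95% interval -0.42 to 0.11, adjusted p = 0.329). Etv1, the transcription factor of the pacemaker cells, was at 0.41, 1.55 and 6.21 TPM, with 7 of 10 libraries below all wild-type libraries. Its log2 fold change was -0.86 (SE 0.33, adjusted p = 0.0382).

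Among the genes of the inhibitory cells, Pdgfra was at 6.20, 9.88 and 15.0 TPM in knockout vehicle, with 7 of 10 libraries inside the wild-type range. Its log2 fold change was 0.19 (95% interval -0.08 to 0.47, adjusted p = 0.229) in counts and -0.02 when TPM was used instead, a scale on which the median of all genes moved by -0.170 in this comparison, -0.266 at 30 mg/kg and -0.274 at 10 mg/kg. With TPM 7821 genes were called here and 2038 of them were higher, against 8082 and 4148 in counts. P2ry1, the purine receptor, was at 5.76, 10.3 and 14.8 TPM, and 7 of 10 libraries were below the lowest wild-type library, with a log2 fold change of -0.29 (SE 0.14, adjusted p = 0.0864). Kcnn3, the potassium channel, was at 0.09, 0.78 and 4.95 TPM. Knockout vehicle replicates 3 and 8, at 4.95 and 3.21 TPM, were inside the wild-type range and the other 8 were below it. The log2 fold change of Kcnn3 was -1.52 (SE 0.54, adjusted p = 0.0263), and its lowest library held 9 counts. In normalised CPM the libraries below all of wild type were again 8 of 10 for Kcnn3 and 7 of 10 for Etv1, but 6 of 10 for Kit and for P2ry1, and those inside its range were 3 of 10 for Ano1 and 6 of 10 for Pdgfra.

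These calls lay close to the threshold. Leaving out 1 library at a time ended the Kit call in 12 of 18 fits (wild-type replicates 1, 2, 4, 5, 7 and 8, and knockout vehicle replicates 1, 2, 4, 8, 9 and 10), with adjusted p from 0.0543 to 0.108. The Etv1 call ended in 12 of 18 (wild-type replicates 2 to 7, and knockout vehicle replicates 4, 5, 6, 7, 9 and 10), with adjusted p from 0.0523 to 0.0749, and the Kcnn3 call ended without wild-type replicate 4 (adjusted p = 0.0517). Without knockout vehicle replicate 9 Ano1 was called lower (log2 fold change -0.25, adjusted p = 0.0438), as P2ry1 was without replicate 3 (-0.33, adjusted p = 0.0447) or replicate 7 (-0.35, adjusted p = 0.0349), and with TPM (limma, -0.42, adjusted p = 0.0225). With no filter on low counts 0 of 6 members and 7938 of all genes were called. With all 4 groups of the cohort in 1 fit only Etv1 of the 6 was called, and 6656 of all genes. DESeq2 run on the rounded counts did not call Kit (-0.31, adjusted p = 0.0533). In the authors' deposited table of the same comparison, Kit was at -0.36 (adjusted p = 0.0294), Etv1 at -0.88 (adjusted p = 0.0113), P2ry1 at -0.33 (adjusted p = 0.0531) and Kcnn3 at -1.54 (adjusted p = 0.0106).

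Knockout colon from mice given compound 13 was also set against wild type, and these comparisons share their 8 controls with the one above, so they are no independent repeat of it. At 30 mg/kg, 4 of 6 members fell (Kit, Etv1, P2ry1 and Kcnn3) and 0 rose, with 43.8% of 16321 genes called in either direction, 23.2% higher and 20.6% lower. P2ry1 in this group was at 7.42, 9.01 and 11.9 TPM, below every wild-type library in all 9 libraries (in normalised CPM, in 7 of 9), with a log2 fold change of -0.32 (SE 0.10, adjusted p = 0.0149). The log2 fold change of Kit was -0.33 (adjusted p = 0.0267), that of Etv1 -0.65 (adjusted p = 0.0302) and that of Kcnn3 -1.32 (adjusted p = 0.0194). Ano1, at 0.03 (adjusted p = 0.850), changed sign with the scale, being -0.19 with TPM, and Pdgfra was at -0.16 (adjusted p = 0.495) in counts and called lower with TPM (-0.46, adjusted p = 0.0304). With TPM 8033 genes were called and 1183 of them were higher, against 7152 and 3782 in counts.

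At 10 mg/kg, 3 of 6 members fell, Kit, Etv1 and Kcnn3, with 47.5% of 16358 genes called in either direction, 24% higher and 23.5% lower. Kcnn3 was at 0.04, 0.24 and 2.29 TPM, below all wild-type libraries in 6 of 7 libraries, with a log2 fold change of -2.32 (SE 0.59, adjusted p = 0.00497). The lowest of these libraries held 8 Kcnn3 counts. Etv1 was at 0.55, 2.44 and 7.06 TPM, with 3 of 7 libraries inside the wild-type range. Its highest TPM value, replicate 4, came from 93 counts, and in normalised CPM replicates 3 and 5 were the 2 of 7 inside the wild-type range and the other 5 lay below it. The log2 fold change of Etv1 was -1.16 (SE 0.26, adjusted p = 0.00152). Kit was at 6.14, 11.99 and 25.6 TPM, with replicate 5 inside the wild-type range and the other 6 below it, and its log2 fold change was -0.54 (SE 0.14, adjusted p = 0.0049). Pdgfra was at 0.31 (adjusted p = 0.0839) in counts and -0.04 with TPM, P2ry1 at -0.30 (adjusted p = 0.104, and called lower with TPM at -0.56, adjusted p = 0.0149) and Ano1 at -0.18 (adjusted p = 0.250). With TPM 7821 genes were called and 1738 of them were higher, against 7771 and 3929 in counts.

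Single libraries moved some of these calls. At 30 mg/kg the Kit call ended without wild-type replicate 7 or 8 (edgeR adjusted p = 0.0615 and 0.0508). The Etv1 call ended without wild-type replicate 4 or 6 or 30 mg/kg replicate 1, 3 or 4 (edgeR adjusted p from 0.0509 to 0.0667). With all 4 groups in 1 fit 0 of 6 members and 5797 of all genes were called. At 10 mg/kg the 3 calls held in all leave-one-out fits, while Ano1 was called lower without 10 mg/kg replicate 7 (-0.31, adjusted p = 0.0153), P2ry1 lower without replicate 4 (-0.43, adjusted p = 0.0130) and Pdgfra higher without replicate 5 (0.39, adjusted p = 0.0254).

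**Figure D2:**
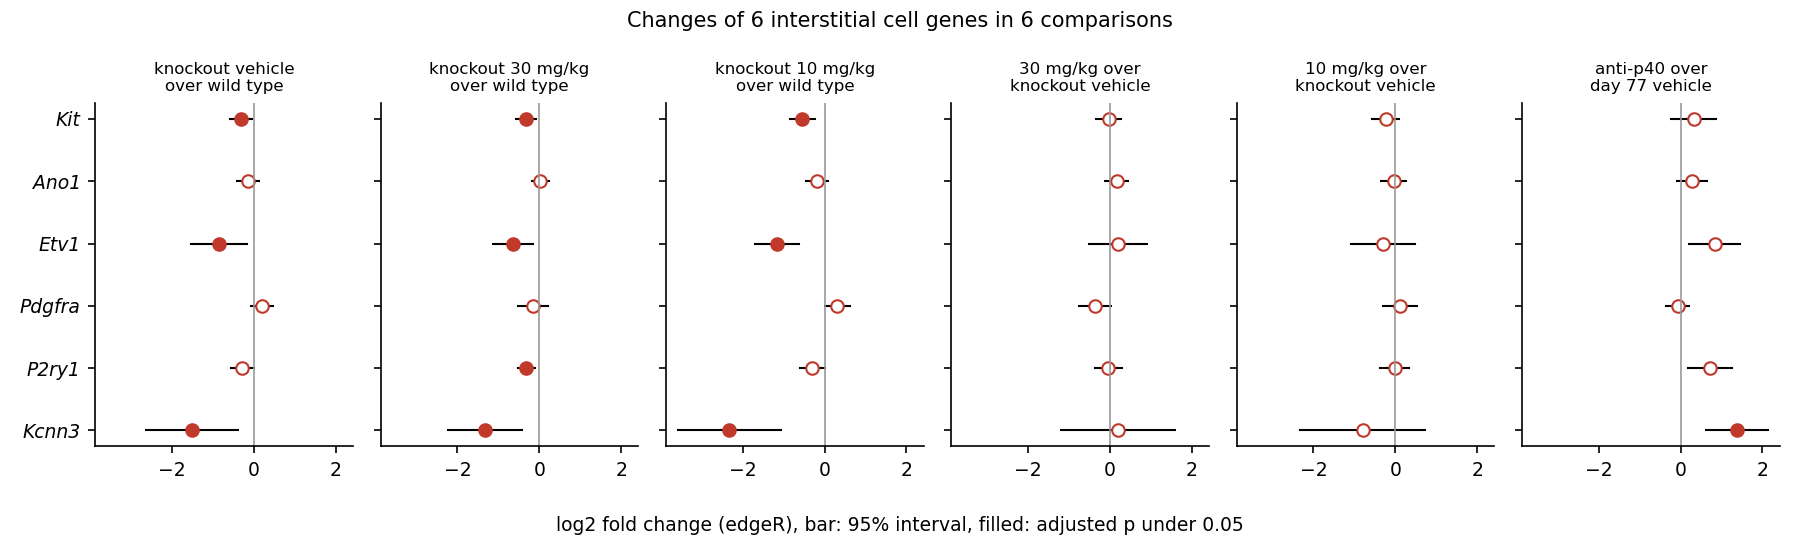
Log2 fold change of each member (x axis, edgeR) in 6 comparisons, 1 panel each, with 95% intervals as bars and filled points where the adjusted p was under 0.05. Kcnn3 sits farthest to the left in the 3 comparisons with wild type, at -1.52, -1.32 and -2.32, and to the right with anti-p40, at 1.38.

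Compound 13 against vehicle asks whether the antagonist moved these genes within the knockout, and 0 of the 6 members passed the threshold at either dose. At 30 mg/kg, edgeR called 0% of 16948 genes (1004 genes had an unadjusted p under 0.05, and DESeq2 called 3). The log2 fold changes of the pacemaker genes were -0.03 for Kit (95% interval -0.34 to 0.27), 0.16 for Ano1 (-0.12 to 0.45, and -0.01 with TPM) and 0.20 for Etv1 (-0.52 to 0.92). Those of the inhibitory cell genes were -0.37 for Pdgfra (-0.75 to 0.01), -0.04 for P2ry1 (-0.38 to 0.29) and 0.19 for Kcnn3 (-1.21 to 1.58). The adjusted p of all 6 was 0.846 or more. The interval of Kcnn3 spans more than 1 log2 unit on either side of 0, while that of Kit stays within 0.34.

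At 10 mg/kg, 2 genes (0.0118%) were called, 1 higher and 1 lower (0.0059% each), and 0 of 6 members, with 1865 genes at an unadjusted p under 0.05 and 72 called by DESeq2. Kit was at -0.23 (95% interval -0.56 to 0.10), Pdgfra at 0.12 (-0.29 to 0.52, and -0.02 with TPM) and Kcnn3 at -0.80 (-2.33 to 0.74). Etv1 was at -0.30 (-1.08 to 0.48) in counts and at 0.28 with TPM, so its sign depended on the scale. The direct comparison of the doses called 0 members and 0% of genes with edgeR (2452 genes at an unadjusted p under 0.05, and 343 called by DESeq2). Pdgfra was at 3.84, 7.14 and 13.6 TPM at 30 mg/kg and at 6.30, 9.36 and 15.8 TPM at 10 mg/kg. The ranges overlapped, and the log2 difference of Pdgfra between the doses was -0.48 (95% interval -0.90 to -0.07, adjusted p = 0.274).

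Anti-p40 against vehicle at day 77 asks what blocking IL-12 and IL-23 goes with in the knockout colon. Kcnn3 rose and was the only member of the 6 called by edgeR, with 16.7% of 16470 genes called in either direction, 8.35% higher and 8.32% lower. Kcnn3 was at 0.61, 1.21, 0.28, 1.14 and 0.75 TPM with vehicle and at 1.93, 3.28, 1.73, 2.15 and 1.12 TPM with anti-p40. All anti-p40 libraries except replicate 5 were above the highest vehicle library, and in normalised CPM the groups did not overlap. The log2 fold change of Kcnn3 was 1.38 (SE 0.34, adjusted p = 0.0206), against a median of 0.009 over all genes.

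Etv1 was at 1.55, 2.73, 0.68, 2.21 and 1.68 TPM with vehicle and at 3.78, 4.41, 2.76, 4.2 and 2.50 TPM with anti-p40, with replicate 5 of anti-p40 again the only one inside the vehicle range in TPM and none inside it in normalised CPM. Its log2 fold change of 0.83 (SE 0.28, adjusted p = 0.0673) did not pass with edgeR, and did with DESeq2 (adjusted p = 0.0249) and with TPM (0.74, adjusted p = 0.0446). P2ry1 was at 9.42, 5.92, 3.63, 7.39 and 10.95 TPM with vehicle and at 14.8, 13.9, 8.93, 11.6 and 14.4 TPM with anti-p40. Only replicate 3 of anti-p40 lay inside the vehicle range of P2ry1. Its log2 fold change was 0.72 (SE 0.24, adjusted p = 0.0650), and DESeq2 called it (adjusted p = 0.0305).

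The other 3 members did not pass. Kit was at 14.3, 10.3, 4.26, 14.8 and 18.0 TPM with vehicle and at 14.8, 19.5, 14.9, 18.2 and 16.5 TPM with anti-p40, with a log2 fold change of 0.32 (95% interval -0.23 to 0.88). Vehicle replicate 3 was the lowest of its group in Kit, Ano1, Etv1, P2ry1 and Kcnn3. Ano1 was at 189, 159, 85.4, 217 and 156 TPM with vehicle and at 221, 189, 169, 206 and 181 TPM with anti-p40, with a log2 fold change of 0.28 (-0.09 to 0.66). Pdgfra was at 12, 9.37, 11.9, 11.6 and 12.4 TPM against 12.6, 9.90, 14.1, 12.6 and 11.1 TPM. The groups overlapped, and its log2 fold change was -0.07 (-0.35 to 0.21) in counts and 0.07 with TPM.

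The Kcnn3 call ended without anti-p40 replicate 2 (1.13, adjusted p = 0.0530), the library with the highest Kcnn3, and P2ry1 was called without vehicle replicate 5 (0.93, adjusted p = 0.0192) or anti-p40 replicate 3 (0.82, adjusted p = 0.0492). In the authors' deposited table Kcnn3 was at 1.37 (adjusted p = 0.000896), Etv1 at 0.82 (adjusted p = 0.0254) and P2ry1 at 0.71 (adjusted p = 0.0292). The anti-p40 effect less the 30 mg/kg compound 13 effect, each over its own cohort's vehicle, was called for 0 of 6 members. DESeq2 also called 0 of 6 members, and 638 of all genes. With edgeR 1.65% of 18021 genes were called, 0.444% higher and 1.2% lower, and 2787 had an unadjusted p under 0.05. P2ry1 came nearest, at 0.77 (95% interval 0.23 to 1.31, adjusted p = 0.129), and Kcnn3 was at 1.197 (-0.72 to 3.11, adjusted p = 0.578), so no difference between the treatments was shown for these genes. Each treatment was given in 1 cohort, so that treatment and cohort cannot be told apart here.

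Smooth muscle genes moved in the same comparisons as the members, and by more than most of them. Of all genes, 23.9% were called lower in knockout vehicle against wild type and 8.35% higher with anti-p40. Against wild type, all 12 of the muscle list fell in knockout vehicle, with a median log2 fold change of -1.279, led by the myosin kinase Mylk (-1.29, adjusted p = 0.00431) and the muscle coactivator Myocd (-1.49, adjusted p = 0.00768). With anti-p40, 8 of 12 rose, with a median of 1.027, led by calponin, Cnn1 (1.22, adjusted p = 0.00396), and Tagln (1.22, adjusted p = 0.0112). The part of muscle content in the member results was not tested, and the members were set against it in 2 ways: as a ratio to the muscle genes of the same library, and by correlation within a group.

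Relative to muscle, 5 of the 6 members had a higher and Kcnn3 a lower mean ratio in knockout vehicle than in wild type. The ratio is a member's log2 CPM less the mean log2 CPM of the 12 muscle genes, which itself fell by 1.72 between the groups. Pdgfra rose most against muscle (log2 difference 1.89, SE 0.50), then Ano1 (1.54, SE 0.51), P2ry1 (1.39, SE 0.45) and Kit (1.39, SE 0.47), with limma adjusted p from 0.00142 to 0.00662. These 4 of 6 stand beside 85.5% of all genes called in either direction by the same test, 85.4% higher and 0.122% lower, and a median of 1.703 over all genes, which of the 6 genes only Pdgfra exceeded. Etv1, at 0.62 (adjusted p = 0.149), and Kcnn3, at -0.56 (adjusted p = 0.193), were not called.

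The limma test draws the spread of a gene towards that of genes of like level, and here all genes carry the same muscle mean, so an exact two-sided permutation test over libraries was added after the data were seen. Etv1 and Kcnn3, with ratios that varied less between libraries, had the unadjusted values p = 0.00105 and p = 0.0117 in this exact test, and the other 4 had p from 0.000914 to 0.00576. The exact test was not run over all genes, whose median ratio moved by 1.703 as the muscle mean fell by 1.72. Its p-values therefore cannot set the members apart from other genes. The sign of the Kcnn3 ratio turned with the scale, at 0.43 when log2(TPM + 1) was used, where the added 1 compresses levels as low as those of Kcnn3. In TPM without the added 1, the Kcnn3 median was 4.29 in wild type and 0.78 in knockout vehicle. The median of the summed muscle genes was 6300 and 2045 TPM.

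With anti-p40 the muscle mean rose by 1.05, and Pdgfra fell against it (-1.11, SE 0.36, limma adjusted p = 0.00611), 1 of 6 members called lower, beside 73.8% of all genes called in either direction, 0.546% higher and 73.3% lower. The median over all genes was -1.039, so Pdgfra lay near the middle of all genes. Ano1 was at -0.73 (adjusted p = 0.0690), Kit at -0.62 (adjusted p = 0.101), P2ry1 at -0.28, Etv1 at -0.17 and Kcnn3 at 0.36 (adjusted p = 0.328). In the exact permutation test, in which 5 against 5 libraries were compared, Ano1 had p = 0.0159 and Pdgfra and Kcnn3 p = 0.0397, all unadjusted. Here too the exact test was not run over all genes. Kcnn3 turned to -0.34 with log2(TPM + 1). Without day 77 vehicle replicate 2 or 3, Kit and Ano1 were also called lower (Kit -0.79 and -0.72, Ano1 -0.85 and -0.73), and Ano1 was without anti-p40 replicate 3 (-0.81).

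**Figure D3:**
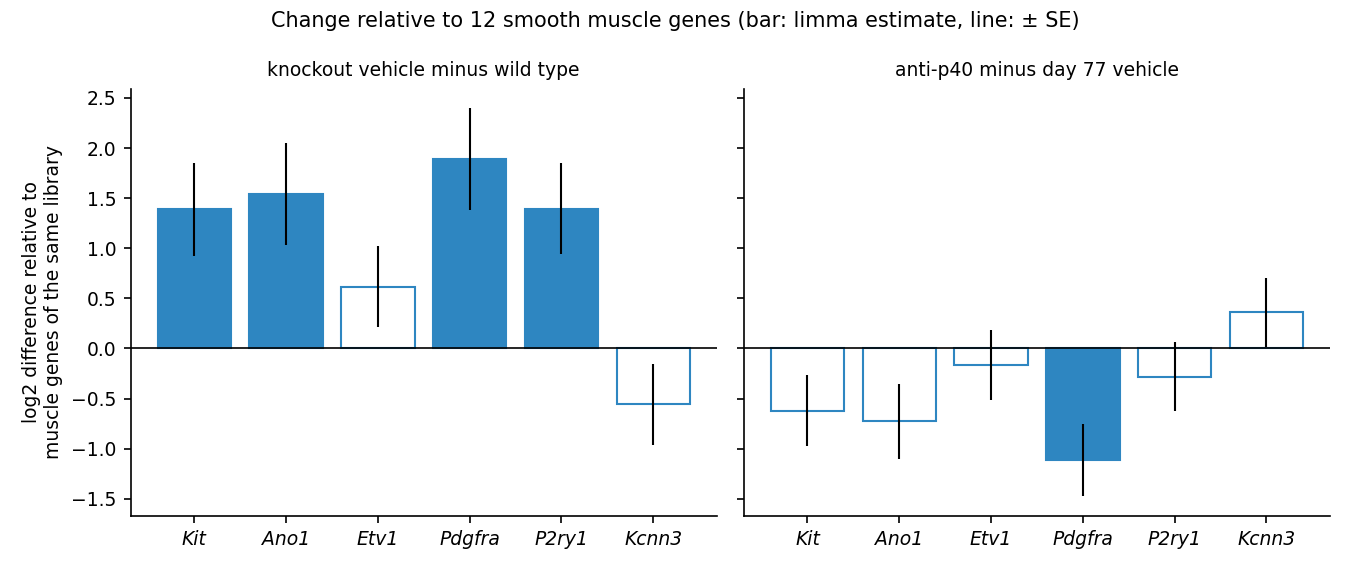
Change of each member relative to 12 smooth muscle genes of the same library (y axis, log2 difference, limma estimate ± SE), filled where the adjusted p was under 0.05, for knockout vehicle minus wild type (left) and anti-p40 minus day 77 vehicle (right). Kcnn3 alone lies below 0 on the left (-0.56) and alone above 0 on the right (0.36), and both Kcnn3 values change sign on the log2(TPM + 1) scale.

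In knockout vehicle, Kcnn3 and Etv1 followed the muscle genes from library to library, while Ano1 and Pdgfra did not pass the test. The muscle score was the mean log2(CPM + 1) of the 12 genes, which ran from 4.51 to 8.22 among the 10 knockout vehicle libraries. Kcnn3 had a Pearson r of 0.974 and a Spearman rho of 0.988 with it (permutation test, adjusted p = 0.00048 for both, over 24 relations). On this scale its slope was 1.02, but the added 1 flattens the slope of a gene with levels as low as those of Kcnn3. Etv1 had r = 0.951 (adjusted p = 0.0006) and rho = 0.952 (adjusted p = 0.00144) with a smaller slope of 0.61. Without the 2 libraries farthest from the median score, r was 0.972 for Kcnn3 and 0.950 for Etv1. An r as high as that of Kcnn3 was held by 0.495% of 17369 genes and one as high as that of Etv1 by 1.295%.

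Kit and P2ry1 followed muscle less closely in knockout vehicle. Kit had r = 0.789 (permutation adjusted p = 0.0200) and rho = 0.782 (adjusted p = 0.0483), falling to r = 0.577 without the 2 farthest libraries, and P2ry1 had r = 0.785 (adjusted p = 0.0200) and rho = 0.721 (adjusted p = 0.0635), falling to 0.443. Both relations thus rested in part on those 2 libraries, and without replicate 2 neither passed (Kit r = 0.670, adjusted p = 0.109, P2ry1 r = 0.667, adjusted p = 0.0920), nor did Kit without replicate 3 (r = 0.723, adjusted p = 0.0707). Their slopes were 0.22 and 0.25. Ano1 had r = -0.04 (adjusted p = 0.925) and Pdgfra r = -0.37 (adjusted p = 0.352).

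The relation was then read in the other groups of the first cohort. Kcnn3 had r = 0.968 at 30 mg/kg (9 libraries, permutation adjusted p = 0.00488) and r = 0.931 at 10 mg/kg (7 libraries, exact permutation adjusted p = 0.0111), with slopes of 1.02 and 0.96. Its rho was 0.883 (permutation adjusted p = 0.0181) and 0.893 (exact permutation adjusted p = 0.0492), and r without the 2 farthest libraries was 0.918 and 0.969. Among the 8 wild-type libraries Kcnn3 had r = 0.749 (exact permutation adjusted p = 0.0797) and rho = 0.476, and its relation did not pass there. Etv1 passed by r in each of these groups, with r = 0.845 at 30 mg/kg (9 libraries, permutation adjusted p = 0.0200), r = 0.896 at 10 mg/kg (7 libraries, exact permutation adjusted p = 0.0324) and r = 0.917 in wild type (8 libraries, exact permutation adjusted p = 0.0111). By rho Etv1 did not pass in any of the 3, with 0.717 at 30 mg/kg, 0.857 at 10 mg/kg and 0.810 in wild type (permutation adjusted p = 0.0900, 0.0635 and 0.0635). At 30 mg/kg the Etv1 r fell to 0.662 without the 2 farthest libraries. Kit had r = 0.915 and rho = 0.964 at 10 mg/kg (7 libraries, exact permutation adjusted p = 0.0111 and 0.0181), r = 0.683 at 30 mg/kg, falling to -0.08 without the 2 farthest, and r = -0.58 in wild type, and the latter 2 did not pass. Whether r differed between groups was not tested.

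The muscle score was not the only one that moved with Kcnn3 and Etv1. In knockout vehicle, enteric neuron and glia genes had r = 0.986 with Kcnn3 and r = 0.966 with Etv1 (permutation test, adjusted p = 0.00024 for both, over 24 further relations). Fibroblast genes had r = 0.854 with Kcnn3 and 0.861 with Etv1 (permutation test, adjusted p = 0.0024 for both), falling to 0.690 and 0.673 without the 2 farthest libraries, and epithelial genes r = -0.772 and -0.737 (permutation adjusted p = 0.0278 and 0.0366). By rho, fibroblast genes passed with Kcnn3 (0.782, permutation adjusted p = 0.0492) and not with Etv1 (0.721, adjusted p = 0.0505), and epithelial genes passed with neither. Kit passed with epithelial genes both ways (r = -0.759 and rho = -0.782, permutation adjusted p = 0.0303 and 0.0492). With neuron and glia genes Kit passed by r (0.740, permutation adjusted p = 0.0366) and not by rho. Ano1, Pdgfra and P2ry1 passed with none of these lists. Of 15 pairs of members only Etv1 and Kcnn3 passed, with r = 0.985 and rho = 0.964 (permutation adjusted p = 0.00045 and 0.00075), and r = 0.961 without the 2 farthest libraries. Kit and P2ry1 came next, with r = 0.778 (permutation adjusted p = 0.0549). The 2 markers of the pacemaker cell, Kit and Ano1, had r = 0.106, and the receptor and channel of the inhibitory cell, Pdgfra and Kcnn3, r = -0.27.

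Kit moved against the mast cell genes, although mast cells carry it. Their score was the mean log2(CPM + 1) of the 6 listed mast genes that passed the count filter over the first cohort. It had r = -0.971 with Kit over the 10 knockout vehicle libraries (rho = -0.952, permutation adjusted p = 0.00024 and 0.00096) and -0.969 without the 2 farthest libraries. Kit was not alone in this: P2ry1 passed by r (-0.734, permutation adjusted p = 0.0366) and not by rho. Etv1 passed by rho (-0.770, permutation adjusted p = 0.0492) and not by r. Kcnn3 had r = -0.702 (permutation adjusted p = 0.0507), Ano1 r = -0.21 and Pdgfra r = 0.52, and these did not pass. Of the 10 mast genes 5 were abundant enough to test against wild type, and 4 rose in knockout vehicle, beside 25.2% of all genes higher. They were led by the mast cell proteases Mcpt1 (3.87, edgeR adjusted p = 0.000108) and Mcpt2 (3.85, adjusted p = 0.000557). A gene low in wild type can pass the count filter through knockout vehicle alone, so this count cannot be set against that share. The summed mast level ran from 3.52 to 6.96 TPM in wild type and from 8.90 to 69.6 TPM in knockout vehicle. The tryptase Tpsab1 and the receptor chains Fcer1a and Ms4a2 had a median of 0 in wild type. With anti-p40, 3 of 6 tested mast genes fell and 0 rose, beside 8.32% of all genes lower. The summed level of the list was 11.1 to 16.7 TPM against 13.3 to 53.0 TPM. There too a gene can pass the filter through the vehicle group alone, so the count has the same limit. How much of the Kit signal came from mast cells was not tested.

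Genes of the other cells that carry Pdgfra were counted too. Of 10 fibroblast genes 8 fell in knockout vehicle, with a median of -0.881, among them the matrix proteoglycan Lum (-1.67, adjusted p = 0.00063) and Dcn (-0.78, adjusted p = 0.000733), beside 23.9% of all genes lower. Of 5 genes of Pdgfra-high cells under the epithelium only Sox6 fell (-1.14, adjusted p = 0.00067) and 0 rose, with a median of -0.067. Pdgfra itself was at 0.19 in counts and -0.02 with TPM. With anti-p40, 1 of 10 fibroblast genes rose, Fbln1 (0.79, adjusted p = 0.00497), and 0 of 5 of the others were called, which lies near the 8.35% of all genes called higher. The part of each cell type in the Pdgfra level was not tested.

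Over the 34 libraries of the first cohort that are in a group, each member's deviation from its group mean was set against that of 17369 genes, as a description. The genes nearest to Kcnn3 were Thbs2 (r = 0.98), a matrix thrombospondin, the muscle myosin kinase Mylk (0.98) and the calcium pump Atp2b4 (0.98), and 7 of the 12 muscle genes were among its nearest 100. Nearest to Etv1 were Kcnn3 (0.95), Mturn (0.94) and Tmem8b (0.94), with 3 muscle genes among the nearest 100. The other 4 members had 0 muscle genes among their nearest 100. Kit was closest to Ank (0.90), Prkcz (0.88) and Peli2 (0.87), Ano1 to Slc44a1 (0.87), Reps2 (0.82) and Phlpp2 (0.81), and P2ry1 to Zfyve9 (0.83), Cipc (0.83) and Auts2 (0.82). Pdgfra was closest to the laminin chain Lamb1 (0.86), the Wnt ligand Wnt5a (0.86), which also stands in the list of cells under the epithelium, and the thrombin receptor F2r (0.85). These libraries share depth and tissue make-up, which such likeness also carries.

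The genes that work with the members were followed from lists of their pathways, in knockout vehicle against wild type first. In this comparison 23.9% of all genes were called lower and 25.2% higher, with a median of -0.012. Of 5 ligands of Kit and Pdgfra, 2 fell, Pdgfd (-1.18, adjusted p = 0.00348) and Pdgfa (-0.39, adjusted p = 0.0047), and 0 rose, with a list median of -0.298, while the Kit ligand Kitl was at -0.13 (adjusted p = 0.281). Of 6 genes of the nitric oxide pathway, the other inhibitory signal of gut nerves, 5 fell and 0 rose, with a median of -1.168, with the lowest p for the phosphodiesterase Pde5a (-0.61, adjusted p = 0.000929) and the cyclase subunits Gucy1a1 (-1.35, adjusted p = 0.00477) and Gucy1b1 (-1.16, adjusted p = 0.00481). Of 8 genes of calcium release, calcium entry and chloride uptake, which drive Ano1, 5 fell and 0 rose. Those with the lowest p were the calcium release channel Itpr1 (-0.73, adjusted p = 0.00102) and the calcium channel Cacna1c (-1.21, adjusted p = 0.00929), with a list median of -0.884.

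Relatives of the members' channels fell in part: 2 of 6 fell, Ano5 (-1.41, adjusted p = 0.0136) and Ano6 (-0.36, adjusted p = 0.0179), and Kcnn2, the nearest to Kcnn3 in size of change, was at -1.62 (adjusted p = 0.0576). Of 3 enzymes that break down purines, the ligands of P2ry1, 2 fell, Nt5e (-0.50, adjusted p = 0.0265) and Entpd2 (-0.22, adjusted p = 0.0428). Of 6 transmitter receptors 3 fell, led by the muscarinic receptor Chrm2 (-1.43, adjusted p = 0.0326), and of 2 connexins 1 fell, Gjc1 (-0.91, adjusted p = 0.0081). Enteric neuron and glia genes fell in 9 of 13, led by the glial factor Sox10 (-1.86, adjusted p = 0.00895), and 0 rose. The medians of these lists were -0.342, -0.216, -0.774, -0.557 and -1.142, in the order given, beside 23.9% of all genes called lower and a median of -0.012.

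With anti-p40 the lists were called as follows, beside 8.35% of all genes higher. Of the nitric oxide genes 3 of 6 rose, led by the kinase Prkg1 (1.39, adjusted p = 0.0267), and of the calcium and chloride genes 4 of 8 rose, among them Itpr1 (0.49, adjusted p = 0.0167) and Stim1 (0.41, adjusted p = 0.0171), while Slc12a2 fell (-0.40, adjusted p = 0.0361). Of the 3 purine enzymes 1 rose, Nt5e, which makes adenosine (1.71, adjusted p = 0.000494), and of the 6 channel relatives 1 rose, Ano10 (0.62, adjusted p = 0.00124). Of the neuron and glia genes 7 of 13 rose, led by Gfap (1.10, adjusted p = 0.006). Of the transmitter receptors 1 of 6 rose, Chrm3 (1.35, adjusted p = 0.0390), and 0 of 5 ligands and 0 of 2 connexins were called. List medians were 0.852 for nitric oxide, 0.569 for calcium and chloride, 1.055 for neurons and glia, 0.705 for transmitter receptors, 0.279 for ligands, 0.237 for connexins, 0.124 for channel relatives and -0.019 for purine enzymes, against 0.009 over all genes.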

How the data were processed

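RNA of mouse distal colon was extracted with RNeasy columns and made into poly(A)-enriched libraries, per the labels' protocols. The authors deposited estimated counts and TPM per gene, made with cutadapt 3.7, STAR 2.7.8a and RSEM 1.3.3 on mm10, per the submitters' processing notes. No annotation release is named in the sources used here. The authors also deposited tables of log2 fold changes with p-values, from DESeq2 1.30.1 per the submitters' processing notes.

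Estimated counts, 17.1% and 20.4% of which (above 0, in the first and the day 77 cohort) were not whole, were rounded. Of 50600 identifiers 50376 were matched to GENCODE M21 symbols. Groups followed the titles, with 44 of 45 libraries in a group. Counts were scaled by TMM, filtered with filterByExpr and tested with edgeR 4.0.16 (quasi-likelihood, robust) in R 4.3.3, with Benjamini-Hochberg adjustment over all genes and a threshold of 0.05. Comparisons with wild type and at day 77 were fitted on their own 2 groups, those between knockout groups of the first cohort on all knockout libraries of it, and the difference between treatments in 1 model. Ratios to muscle used limma 3.58.1 on log2 CPM (prior count 2), and correlations used log2(CPM + 1) with 100000 permutations or all of them, in Python 3.11.15 with scipy 1.17.1. Alternatives were DESeq2 1.42.0, its size factors, no count filter, TPM, other sample sets, other muscle references and each library left out. The edgeR, limma and permutation steps were tested on simulated data.

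The 6 genes are named throughout, with up to 4 genes of lowest adjusted p from each other list, any gene called against its list's majority, and the 3 nearest genes of each member. Members and lists were chosen with earlier results of these data known.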

Additional observations from a re-analysis of the deposited data

Results flagged for a closer look

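Each member was examined in each of its 6 groups for a library far from the others, by the gap to the nearest library over the range of the group, and 2 of 36 such sets held one. Kit in knockout vehicle replicate 3 was at 27.07 TPM, the highest of 10 libraries, with the next at 18.74 TPM. Pdgfra in day 77 vehicle replicate 2 was at 9.37 TPM, the lowest of 5, with the next at 11.59 TPM. Chance alone marks about 1 in 20 such sets.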

How the results depend on the processing

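Over 1350 values of members under the alternatives, 1243 kept direction and side of the threshold, 47 lost a call, 25 gained one and 35 changed sign. The 1243 include values uncalled under both settings. The knockout vehicle calls against wild type passed in 8 of 23 alternatives for Kit, 10 for Etv1 and 20 for Kcnn3. At 30 mg/kg Kit passed in 19 of 22, Etv1 in 16, and P2ry1 and Kcnn3 in 21 each. At 10 mg/kg the 3 calls passed in 20 of 20, and Kcnn3 with anti-p40 in 13 of 14. Against wild type, knockout vehicle had 3 members called, 2 with DESeq2 (Kit lost, adjusted p = 0.0533), 4 with TPM, 0 with no count filter, 1 with all 4 groups in 1 fit, and 0 to 4 with 1 library left out. Of all genes 8082 were called, and 8824 with DESeq2, 7821 with TPM, 7938 with no count filter and 6656 with all 4 groups. At 30 mg/kg 4 became 0 with all 4 groups in 1 fit, while the genes called went from 7152 to 5797. With anti-p40, 1 became 3 with DESeq2, 2 with TPM and 0 to 2 with 1 library left out. Of all genes 2745 were called there, and 3874 with DESeq2 and 1867 with TPM. Relative to muscle with anti-p40, 1 became 2 with TPM, 2 with the muscle median, 3 by the exact permutation test (unadjusted, chosen after seeing the data) and 1 to 3 with 1 library left out. Of all genes 12156 were called by this ratio, and 13844 with TPM and 12695 with the muscle median. The exact test was not run over all genes. Members correlated with muscle numbered 2 to 4 with 1 library left out. On the TPM scale the sign changed for Pdgfra in knockout vehicle (-0.02147) and at 10 mg/kg (-0.04413) against wild type, for Ano1 at 30 mg/kg against wild type (-0.1926) and against vehicle (-0.009112), for Etv1 (0.2774) and Pdgfra (-0.02267) at 10 mg/kg against vehicle, for Etv1 (-0.06196) and P2ry1 (0.03808) between doses, for Pdgfra with anti-p40 (0.06614), and for Kcnn3 relative to muscle in knockout vehicle (0.4325) and with anti-p40 (-0.3391). With 1 library left out, the sign changed for Ano1 at 30 mg/kg against wild type (-0.0226 to 0.0784), for Kit (-0.08944 to 0.02816), P2ry1 (-0.1065 to 0.02092) and Kcnn3 (-0.02366 to 0.5655) at 30 mg/kg against vehicle, for Ano1 (-0.1652 to 0.06141) and P2ry1 (-0.1478 to 0.07035) at 10 mg/kg against vehicle, for P2ry1 between doses (-0.1134 to 0.09598), and for the correlation of Ano1 with muscle (-0.3929 to 0.3761). The cause of these changes was not tested. None of the values that changed sign had passed the edgeR, limma or correlation threshold. No paired analysis was possible because the labels give no replicate numbers shared between groups. Kcnn3 rested on as few as 8 counts in a library, which limits its precision.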

Other observations

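The library with conflicting dose labels had 13.63 TPM of Kit, 157.97 of Ano1, 6.55 of Etv1, 7.36 of Pdgfra, 12.54 of P2ry1 and 1.42 of Kcnn3, with a summed muscle level of 2932 TPM.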
